A study of Homo sapiens with 6 samples.

Results

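HSF1, HSF2, HSF4, HSBP1, ZFAND2A, SERPINH1, CLU, SQSTM1 and IER5 were followed as the heat shock factors and the heat-inducible genes outside the main chaperone families. These 9 genes were chosen by earlier results of these same arrays, with the VRTN contrast known, from probe sets annotated to their symbols, among 19062 genes with a probe set of a single symbol. Their differences between the groups are therefore a description and not a test. Each gene had 1 probe set. That of HSF2 was named through its RefSeq accession, and that of HSF4 also lists a transcript of FBXL8, so its signal may hold both genes.

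The cells were HEK293T, cells of human embryonic kidney made permanent in culture, with the large T antigen of SV40. In 3 arrays they had received pNTAP-2×flag-VRTN, a plasmid that drives the tagged coding sequence of the pig gene VRTN, which encodes a DNA-binding protein linked to vertebra number in pigs. In the other 3 arrays they had received the same plasmid empty. RNA was taken with TRIzol 24 hours after transfection, 500 ng was labelled, and the labels call the 3 arrays of a group biological replicates without saying whether the cultures were separate, so p-values measure the spread between these arrays, which may be technical. The labels give no share of transfected cells, and a change in some cells cannot be told apart from a smaller change in all.

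Expression was measured on Affymetrix Human Gene 1.0 ST arrays as RMA log2 signal, 1 value per probe set and array. The median over the 29183 tested probe sets lay between 6.43 and 6.47, and array number limits the precision. The human VRTN probe set averaged 6.18 ± 0.10 in VRTN arrays and 5.10 ± 0.11 in empty vector arrays (SD, n = 3 each), although the plasmid holds the pig sequence. Hybridisation spike controls, which are added to the sample after labelling, averaged 10.60 ± 0.10 in VRTN arrays and 10.24 ± 0.19 in empty vector arrays (SD, n = 3 each), a difference of 0.35 over 9 probe sets, while the poly(A) spikes differed by -0.045 over 4 probe sets. The part of the hybridisation spikes in the results below was not tested. Of 10 HEK293T markers, 8 lay in each array above the negative controls' median level, with sums of 76.4 to 77.2 in VRTN arrays and 77.0 to 77.9 in empty vector arrays. Of 15 markers of other cell types 7 lay below that level in every array. Another 2, APOA1 and KRT14, lay above it in every array, and the rest lay below it in some arrays. The marker sums of the other cell types ranged from 75.7 to 76.3 in VRTN arrays and from 74.6 to 76.9 in empty vector arrays.

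Heat shock factors are transcription factors that bind heat shock elements, arrays of inverted GAA units in promoters, once they have formed trimers. HSF1 is the main factor of the heat shock response, is held inactive by chaperones in unstressed cells and is controlled largely at the protein level. Its targets include chaperones of the cytosol and the endoplasmic reticulum, proteasome adaptors and autophagy receptors.

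Promoter windows are shown for SERPINH1, ZFAND2A and IER5, the 3 genes with a match to a heat shock element among the 7 searched. HSF1 and CLU were not searched, so nothing is said of heat shock elements at these genes. From the RefSeq promoter table of GRCh38.p14, 12 windows for 7 of the 9 genes were taken. Of each, the 250 bases before the annotated start were searched for exact matches on both strands. A 3-unit element was defined as GAANNTTCNNGAA or TTCNNGAANNTTC, and a 2-unit element, which every 3-unit element also contains, as GAANNTTC or TTCNNGAA. SERPINH1 had the only 3-unit match among the 7 genes. It lies at chr11:75562003-75562252 on the plus strand, with the 3-unit element in capitals, its last base 64 bases before the start.
SERPINH1: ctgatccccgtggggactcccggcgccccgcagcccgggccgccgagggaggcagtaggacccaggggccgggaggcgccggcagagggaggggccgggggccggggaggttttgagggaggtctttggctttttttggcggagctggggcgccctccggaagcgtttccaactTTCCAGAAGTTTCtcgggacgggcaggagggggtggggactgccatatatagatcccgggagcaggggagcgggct
ZFAND2A lies on the minus strand, and its window at chr7:1160197-1160446 had a 2-unit match, in capitals, that ends 164 bases before the start.
ZFAND2A: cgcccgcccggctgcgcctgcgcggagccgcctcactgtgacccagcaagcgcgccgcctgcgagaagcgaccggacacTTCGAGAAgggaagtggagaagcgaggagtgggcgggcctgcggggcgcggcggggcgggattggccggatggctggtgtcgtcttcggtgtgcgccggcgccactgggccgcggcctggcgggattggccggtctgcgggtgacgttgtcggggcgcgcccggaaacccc
IER5, on the plus strand, had a 2-unit match, in capitals, that ends 219 bases before the start in its window at chr1:181088450-181088699.
IER5: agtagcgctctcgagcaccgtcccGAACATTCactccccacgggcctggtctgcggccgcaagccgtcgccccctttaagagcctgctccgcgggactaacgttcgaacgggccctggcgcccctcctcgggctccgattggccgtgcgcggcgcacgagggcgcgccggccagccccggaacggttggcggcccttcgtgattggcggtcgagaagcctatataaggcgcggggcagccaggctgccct

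A 3-unit match occurred in 0.557% of the 27305 genes with a window and a 2-unit match in 13.96%. In the list of heat-inducible chaperone genes, 7 of the 24 with a window had a 3-unit match (29.2%) and 16 a 2-unit match (66.7%). The windows of HSF2, HSF4, HSBP1 and SQSTM1, and a second window of SERPINH1 at a start further downstream, held neither. The core of the antioxidant response element, TGACNNNGC, the motif of the NRF2 pathway, was matched in windows of ZFAND2A, HSF4 and HSBP1 and in 13.2% of all genes. A CCAAT box was found for 4 of the 7 genes, ZFAND2A, SERPINH1, HSF2 and IER5, against 37.0% of all genes. The exact letters TATAAA of a TATA box were found for HSF2 alone of the 7, against 13.1%. They ended 167 bases before the start in its first window and were absent from its second. Looser forms of the TATA box were not counted. These matches are descriptions of the letters and do not show binding.

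Among the 9 genes, ZFAND2A, SERPINH1 and CLU were higher in VRTN cells by more than 2-fold, SQSTM1 was slightly higher with groups that overlapped, and the 3 heat shock factors, HSBP1 and IER5 differed by at most 0.091 on the log2 scale. In the limma fit over all 29183 probe sets, 0 of the 9 passed an adjusted p of 0.05, as did 0.0137% of all probe sets. At an unadjusted p under 0.05, 3 of the 9 were higher, against 2.65% of all probe sets, and 0 were lower, against 2.92%. With the replicate number as a block ZFAND2A, SERPINH1 and CLU passed, each at a limma adjusted p of 0.0434, as did 0.0274% of all probe sets. The same 3 passed with array weights, where 0.0480% of all did. Since the genes were picked with this contrast in view, nothing is read from these counts.

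**Figure D1:**
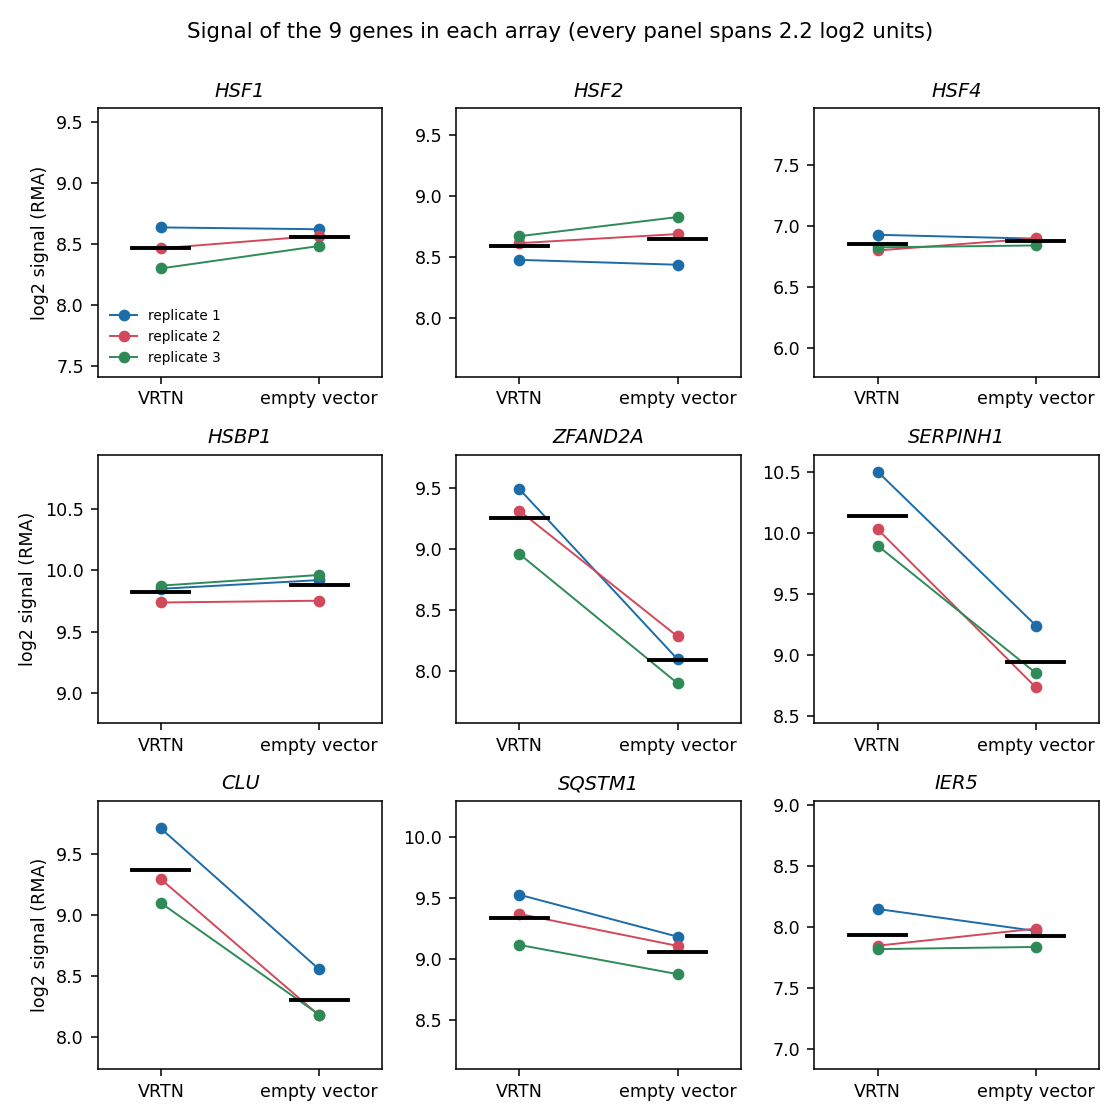
The log2 signal of the 9 genes is plotted in each of the 6 arrays, with VRTN arrays left of empty vector arrays, a bar at each group mean and lines that join arrays of the same replicate number. The VRTN arrays of ZFAND2A, SERPINH1 and CLU lie above all empty vector arrays, while the groups of the other genes overlap.

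SERPINH1, or HSP47, is the collagen chaperone of the endoplasmic reticulum. Its log2 signal was 10.50, 10.03 and 9.90 in VRTN replicates 1, 2 and 3, against 9.24, 8.73 and 8.85 in empty vector replicates 1, 2 and 3. The lowest VRTN array stood above the highest empty vector array, and replicate 1 was the highest array in both groups. The means were 10.14 ± 0.32 in VRTN cells and 8.94 ± 0.27 in empty vector cells (SD, n = 3 each). The log2 difference was 1.20 (SE 0.18; 95% interval 0.78 to 1.62), or 2.30-fold with an interval of 1.71 to 3.08, at a limma adjusted p of 0.321. It ranked 6 among the differences of all 29183 probe sets. Within replicate numbers 1, 2 and 3 the log2 differences were 1.26, 1.30 and 1.04, so that the pairs stood closer together than the arrays of a group did.

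ZFAND2A, or AIRAP, is an arsenite-inducible zinc finger protein that associates with the proteasome. Its signal was 9.49, 9.31 and 8.96 in VRTN replicates 1 to 3, against 8.10, 8.28 and 7.90 in empty vector replicates 1 to 3. All VRTN arrays were higher than all empty vector arrays, with replicate 3 the lowest of each group. The means were 9.25 ± 0.27 in VRTN cells and 8.09 ± 0.19 in empty vector cells (SD, n = 3 each), a log2 difference of 1.16 (SE 0.15; 95% interval 0.81 to 1.51) or 2.24-fold (1.76 to 2.85), with a limma adjusted p of 0.231. The difference ranked 7 among all probe sets, and the pairs gave 1.39, 1.03 and 1.06. With the replicate block the interval was 0.95 to 1.37.

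CLU, or clusterin, is a secreted chaperone that holds unfolded proteins outside the cell. Its VRTN replicates 1, 2 and 3 read 9.71, 9.29 and 9.10, against 8.55, 8.18 and 8.18 for the empty vector. The groups were again apart, and replicate 1 was the highest in each. Means of 9.37 ± 0.31 in VRTN cells and 8.30 ± 0.22 in empty vector cells (SD, n = 3 each) gave a log2 difference of 1.06 (SE 0.17; 95% interval 0.67 to 1.45), or 2.09-fold (1.59 to 2.74), with a limma adjusted p of 0.321. CLU ranked 11 of the 12 probe sets that were at least 2-fold higher with VRTN, and 0 probe sets were as much lower. Its pairs differed by 1.15, 1.12 and 0.91.

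SQSTM1, or p62, is an autophagy receptor that gathers ubiquitinated proteins and binds KEAP1. It measured 9.53, 9.37 and 9.12 in VRTN replicates 1 to 3, against 9.18, 9.11 and 8.88 in empty vector replicates 1 to 3. VRTN replicate 3 lay below empty vector replicate 1, so the groups overlapped, but each VRTN array was above the empty vector array of its own number, by 0.34, 0.26 and 0.24. The means were 9.34 ± 0.21 in VRTN cells and 9.06 ± 0.16 in empty vector cells (SD, n = 3 each). The log2 difference of 0.28 had a 95% interval of -0.0064 to 0.57 without the block and of 0.14 to 0.42 with it, with limma adjusted p of 0.892 and 0.260. It ranked 439 among all probe sets, just beyond the central 95% of all differences, which ran from -0.23 to 0.24.

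IER5 is an immediate early gene and a known target of HSF1 whose product promotes the activity of HSF1. Its signal was 8.15, 7.85 and 7.82 in VRTN replicates 1 to 3, against 7.97, 7.99 and 7.84 in empty vector replicates 1 to 3. The groups overlapped, and VRTN replicate 1 alone stood above the rest. Means of 7.94 ± 0.18 in VRTN cells and 7.93 ± 0.08 in empty vector cells (SD, n = 3 each) differed by 0.0075 (95% interval -0.23 to 0.24). Leaving out VRTN replicate 1 gave -0.097 and leaving out empty vector replicate 3 gave -0.039, so the sign rested on single arrays.

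HSF1 measured 8.64, 8.46 and 8.30 in VRTN replicates 1, 2 and 3, against 8.62, 8.57 and 8.48 in empty vector replicates 1, 2 and 3. The lowest array was VRTN replicate 3, and the groups overlapped. The means of 8.47 ± 0.17 in VRTN cells and 8.56 ± 0.07 in empty vector cells (SD, n = 3 each) differed by -0.091 (SE 0.096; 95% interval -0.31 to 0.13; limma adjusted p = 0.977). HSF1 was not tested against SERPINH1, ZFAND2A or CLU, and the intervals describe genes chosen with this contrast known.

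HSF2, a factor active in development that can form mixed trimers with HSF1, gave 8.48, 8.61 and 8.67 in VRTN replicates 1 to 3, against 8.44, 8.69 and 8.83 in empty vector replicates 1 to 3. Replicate 1 was the lowest in both groups, unlike for the other genes with large replicate differences. The means were 8.59 ± 0.10 in VRTN cells and 8.65 ± 0.20 in empty vector cells (SD, n = 3 each), a log2 difference of -0.064 (95% interval -0.32 to 0.19). Without empty vector replicate 3 it was 0.025.

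HSF4, known for its role in the lens, gave 6.93, 6.80 and 6.83 in VRTN replicates 1 to 3, against 6.90, 6.90 and 6.84 in empty vector replicates 1 to 3. All 6 arrays lay within 0.13 of each other, the narrowest range of the 9 genes. The means were 6.85 ± 0.07 in VRTN cells and 6.88 ± 0.03 in empty vector cells (SD, n = 3 each), a log2 difference of -0.027 (95% interval -0.18 to 0.13). The signal stood 0.72 to 1.53 above the negative control median of the same array.

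HSBP1 binds the trimerisation domain of HSF1 and is known as a negative regulator of it. Its signal was 9.85, 9.74 and 9.88 in VRTN replicates 1 to 3, against 9.92, 9.75 and 9.96 in empty vector replicates 1 to 3. Replicate 2 was the lowest in both groups, and each VRTN array was slightly below its pair. The means of 9.82 ± 0.07 in VRTN cells and 9.88 ± 0.11 in empty vector cells (SD, n = 3 each) differed by -0.058 (95% interval -0.25 to 0.13).

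**Figure D2:**
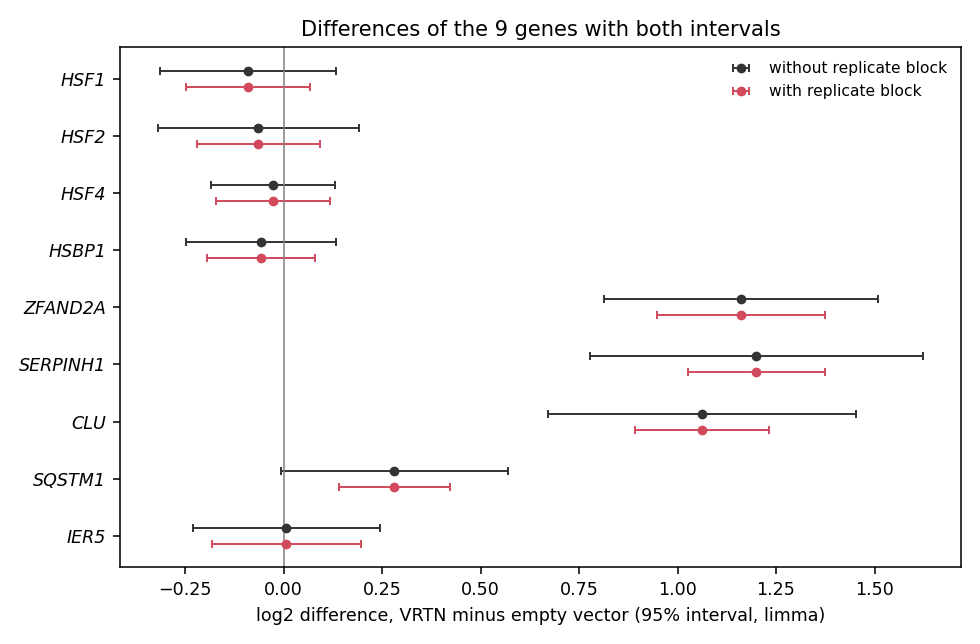
The log2 difference, VRTN minus empty vector, is plotted for the 9 genes with 95% intervals from limma in black without and in red with the replicate block. The intervals of SERPINH1, ZFAND2A and CLU stay above 0 in both fits, and that of SQSTM1 does so with the block.

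Over the 9 genes, 5 differences were positive and 4 negative, with a median of 0.0075 against -0.0049 over all tested probe sets. The groups did not overlap for 3 genes, all higher with VRTN, against 5.39% of all probe sets, and for 0 in the lower direction, against 5.92%. All 3 pairs were above 0 for 4 genes (SERPINH1, ZFAND2A, CLU and SQSTM1), against 15.8% of all probe sets, and below 0 for HSBP1 alone, against 19.1%. In every array each of the 9 stood above the median negative control and below the 95th percentile of the negative controls, which spread widely.

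**Figure D3:**
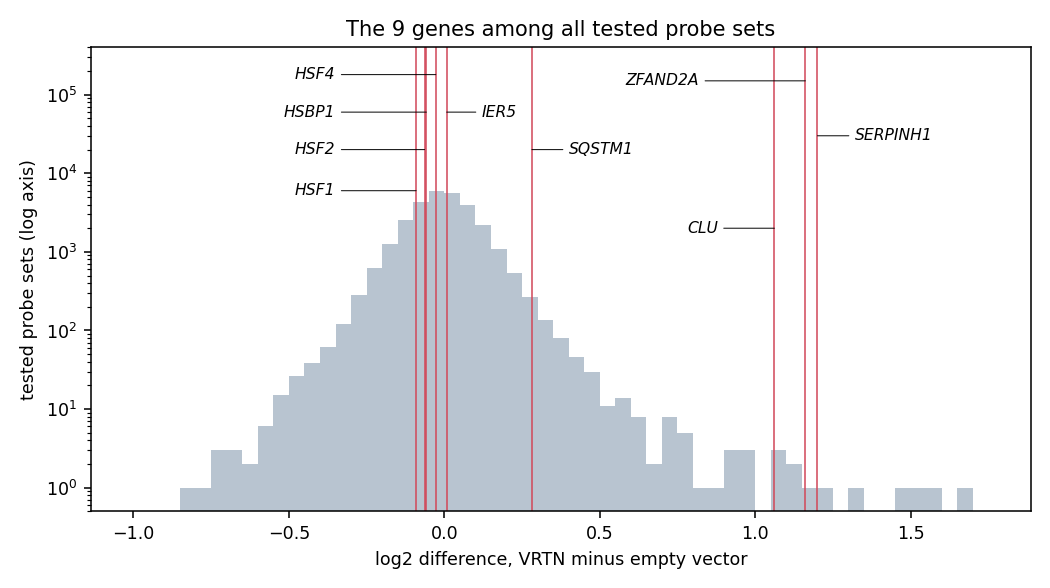
The histogram counts the 29183 tested probe sets by log2 difference, VRTN minus empty vector, on a log count axis, with lines at the 9 genes. SERPINH1, ZFAND2A and CLU lie in the thin upper tail, SQSTM1 at its edge, and the other 5 genes near 0.

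The same genes were then compared across replicate numbers, a contrast that is balanced over the groups and did not enter their choice. The SERPINH1 means for replicate numbers 1, 2 and 3, over both groups, were 9.87, 9.38 and 9.37, and those of CLU were 9.13, 8.73 and 8.64. SQSTM1 averaged 9.36, 9.24 and 8.996, and ZFAND2A 8.79, 8.80 and 8.43. Replicate 1 was thus the highest or near the highest for these 4 genes, while HSF2 ran the other way at 8.46, 8.65 and 8.75. This was not particular to the 4 genes. Replicate 1 was also the highest for HSF1, HSF4 and IER5, at 8.63, 6.91 and 8.06. For HSBP1 it was near the highest, at 9.89 against 9.75 and 9.92.

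None of the 9 passed the limma F test over replicate numbers at an adjusted p of 0.05, against 1.03% of all probe sets. The adjusted p was 0.0708 for SERPINH1, 0.0801 for CLU, 0.103 for SQSTM1, 0.167 for ZFAND2A and 0.179 for HSF2. These 5 had an unadjusted p under 0.05, as did 20.9% of all probe sets. For HSF1, HSBP1, IER5 and HSF4 the adjusted p was 0.264, 0.314, 0.359 and 0.732. With a trended and robust prior the 5 genes passed, as did 11.6% of all probe sets, and without the dimmest 40 percent SERPINH1, CLU and SQSTM1 passed, as did 14.3% of the probe sets kept.

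**Figure D4:**
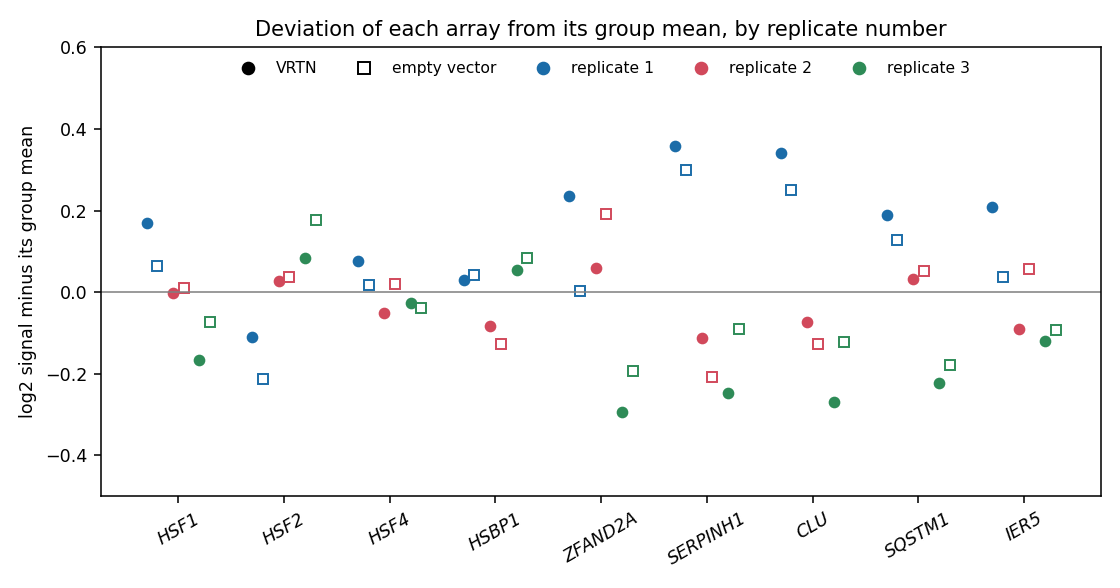
Each point is the log2 signal of an array minus the mean of its group, with filled circles for VRTN, open squares for the empty vector and a colour for each replicate number. For HSF2 both arrays of replicate 1 lie below their group means, and for each of the other genes both lie above.

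The genes whose 6 values were most like those of each gene were ranked by Pearson r over the 6 arrays among 19061 genes. These r values describe arrays that share a group difference and replicate numbers. SERPINH1 was most like CLU (r = 0.998), and the r of their deviations from the group means was 0.985, so they also moved together within the groups. Such an r was not particular to this pair. It was 0.92 for HSF1 with CLU and 0.97 for HSF4 with IER5, while HSF2 with CLU gave -0.84. VN1R10P and HSP90AA4P came next for SERPINH1, and CLU was most like VN1R10P, SERPINH1 and CCDC117. ZFAND2A was most like CLEC4C (0.998), the keratin KRT8 (0.994) and ASPHD1 (0.992). Its deviations followed those of SERPINH1 less closely, at r = 0.47, than those of SQSTM1, at r = 0.90.

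SQSTM1 was most like NCOA4, the autophagy receptor for ferritin (0.998), followed by TMBIM1 and VSTM2L. Each such r is the highest among 19061 genes over only 6 arrays, and every member had a close match. For HSF4 the highest r was 0.992, with PLG, and for HSBP1 it was 0.994, with GABRG3. IER5 was most like B3GNT9, SCAMP2 and ZNF613. Among the most alike for the factors were ING3, MRPL46 and ZNF668 for HSF1, MIR15B and GPR63 for HSF2, and PLG, RNF114 and ZFYVE19 for HSF4. For HSBP1 they were GABRG3, HDGF and SLC24A2. Deviations of HSF1 from its group means had r = 0.95 with those of SQSTM1 and r = -0.73 with those of HSF2, over 6 arrays.

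The genes that act with the members were taken from 6 lists, chosen like the members with earlier results known, and no test compares the lists. Of 20 measured partners and regulators of HSF1, 0 passed the threshold in either direction, against 0.0137% of all probe sets, and their median log2 difference was 0.023. Before adjustment, 1 higher and 1 lower gene had a p under 0.05, against 2.65% and 2.92% of all probe sets. The arrays of the groups did not overlap for 4 higher and 2 lower genes of the 20, against 5.39% and 5.92%. FBXW7, the ubiquitin ligase subunit that marks HSF1 for degradation, had the largest difference, at -0.50 (SE 0.066; limma adjusted p = 0.238), with all VRTN arrays below all empty vector arrays. HDAC6, a deacetylase that links ubiquitinated proteins to HSF1 activation, differed by 0.16 (SE 0.068), HSP90AB1, a chaperone that holds HSF1, by 0.20 (SE 0.092), and SSBP1, a mitochondrial DNA-binding protein, by -0.15. HSBP1L1 and CSNK2A1 had no probe set of a single symbol.

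The heat-inducible chaperones, which share HSF1 as a regulator with ZFAND2A and SERPINH1, had the highest median of the 6 lists. Of 24 measured genes 2 passed, both higher, against 0.0137% of all probe sets. Of the differences 23 were positive, and the median was 0.22, against -0.0049 over all probe sets. Before adjustment, 13 were higher and 0 lower at a p under 0.05, against 2.65% and 2.92% of all probe sets, and 16 higher and 0 lower genes had groups that did not overlap, against 5.39% and 5.92%. DNAJB1, the co-chaperone of HSP70 that also restrains HSF1, rose by 1.54 (SE 0.12; limma adjusted p = 0.0182), and HSPH1, an exchange factor of HSP70, rose by 0.96 (SE 0.087; limma adjusted p = 0.0374). DNAJB4 was the 1 gene with a negative difference, at -0.071. Neither call was kept without VRTN replicate 1 or 2 or empty vector replicate 2 or 3, and that of HSPH1 was lost without VRTN replicate 3 as well, while the log2 difference without single arrays stayed between 1.43 and 1.62 for DNAJB1 and between 0.90 and 1.04 for HSPH1. HSPA1A and HSPA1B had no probe set of a single symbol and were not measured.

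Of 20 other heat- or stress-inducible genes, 0 passed, against 0.0137% of all probe sets, and the median was 0.11. Before adjustment, 3 genes with a p under 0.05 were higher and 0 lower, against 2.65% and 2.92% of all probe sets. The groups did not overlap for 4 higher and 0 lower genes, against 5.39% and 5.92%. MRPL18, a ribosomal protein of the mitochondrion with a stress-induced cytosolic form, differed by 0.47 (SE 0.085; limma adjusted p = 0.386) and DEDD2, a death effector domain protein, by 0.34. The stress factor ATF3 differed by -0.24 and the stress-inducible NUPR1 by -0.12. IER5 and HSF1 stood below the median of this list, and neither was tested against it.

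Around SQSTM1, 0 of 17 autophagy receptors and partners passed, against 0.0137% of all probe sets, with a median of 0.014. Groups that did not overlap were seen for 0 higher and 2 lower genes, against 5.39% and 5.92%. Against 2.65% higher and 2.92% lower of all probe sets, 0 higher and 2 lower genes had a p under 0.05 before adjustment. These were TRAF6, a ubiquitin ligase that binds SQSTM1, at -0.42 (SE 0.092; limma adjusted p = 0.594), and NFE2L2, which encodes NRF2, the factor that SQSTM1 frees from KEAP1, at -0.21. NCOA4 differed by 0.13, and WDFY3, an adaptor of aggregate autophagy, by 0.11. The difference of SQSTM1 itself was 0.28, but SQSTM1 was chosen with this contrast known and was not tested against these 17.

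Around SERPINH1, 0 of 18 collagen and collagen-processing genes passed, against 0.0137% of all probe sets, and their median was 0.027. P4HA2 and PLOD1, which hydroxylate proline and lysine of collagen, differed by 0.25 and 0.20, PPIB, a proline isomerase, by -0.096 and the collagen COL5A1 by -0.10. The 18 differences ran from -0.10 to 0.25. That of SERPINH1, 1.20, was not tested against them, since SERPINH1 was chosen with this contrast known. At an unadjusted p under 0.05, 1 gene was higher and 0 lower, against 2.65% and 2.92% of all probe sets. The groups did not overlap for 2 higher and 0 lower genes, against 5.39% and 5.92%. Among 19 nearest relatives by family, 0 passed, against 0.0137% of all probe sets, and the median was 0.00085. Of these relatives 1 was higher and 1 lower at an unadjusted p under 0.05, against 2.65% and 2.92% of all probe sets. Non-overlapping groups were seen for 1 higher and 1 lower relative, against 5.39% and 5.92%. ZFAND5, a relative of ZFAND2A, differed by 0.20, the serpins SERPINB9 and SERPINF1 by 0.21 and -0.20, and HSF5, whose 6 values were all below the median negative control, by -0.18.

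**Figure D5:**
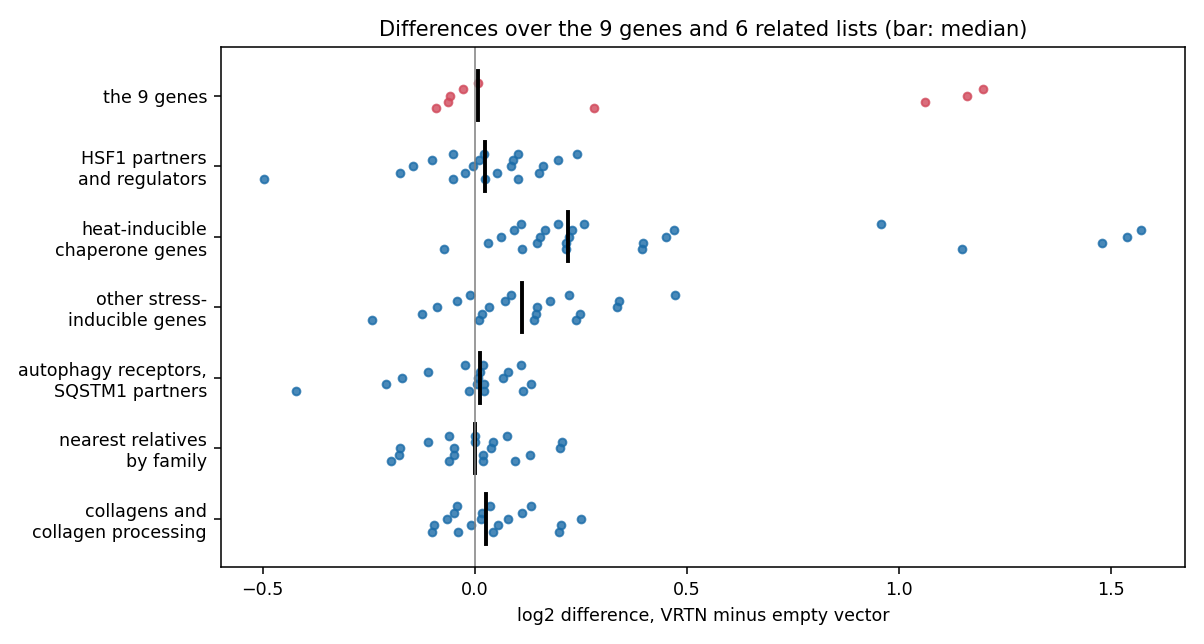
Each point is the log2 difference, VRTN minus empty vector, of a gene in the 6 lists, with the median of each list as a bar and the 9 genes in a row of their own. The heat-inducible chaperones have a median of 0.22, and the medians of the other lists lie between 0.00085 and 0.11.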

How the data were processed

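Total RNA was measured on 6 arrays, 3 VRTN and 3 empty vector. Per the file headers, the deposited values are log2 signals that the authors made by RMA with its defaults, and the submitters' processing notes list Affymetrix Expression Console 1.0. Because RMA gives all arrays the same distribution, it hides any change common to most transcripts. Array coordinates, of a build not given in the sources used here, were left aside. The values were deposited in 2 tables, and 0 of 33297 probe sets differed. The 4114 control probe sets were left out.

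VRTN and empty vector arrays were set against each other in limma 3.58.1 under R 4.3.3 (lmFit, eBayes; two-sided; Benjamini-Hochberg over the 29183 tested probe sets; threshold 0.05), with no filter on dim probe sets. Replicate numbers were compared by a moderated F test in a model with group and number. Of the tested probe sets, 19460 were named by the platform annotation and 691 by accession through the RefSeq table of GRCh38.p14, 1780 carried several symbols and 7252 none. A gene with several probe sets was represented by that with the highest mean. Tables were handled in pandas 2.3.3 under Python 3.11.15 and plots in matplotlib 3.10.9.

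The members and lists were chosen with earlier results of these data known. Named genes are the 9 members, up to 2 genes per list and direction by smallest p, the 3 genes most like each member, and VRTN; 1 gene that this rule names is not reported here. The deviations of VRTN and empty vector arrays of the same number, each from its own group, correlated at 0.535, 0.157 and 0.499 across probe sets. Those of arrays of different numbers correlated at -0.49 to 0.072. Probe sets are not independent of each other, and the numbers were read as pairs from these same arrays. The main comparison has no replicate term, and the fit with the replicate block is given where it changed a call. The labels give the numbers alone. Results were recomputed with median centring or another quantile normalization, from the second table, with averaged probe sets, with the replicate block or array weights, without moderation or with a trended and robust prior, without the dimmest 40 percent, and with each array left out. Leaving out a number in both groups was added after seeing the data. The fits were first run on simulated data with independent noise and shifts larger than the differences of the 9 genes. That run does not show how the fits behave where arrays of a number vary together or differences are smaller.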

Additional observations from a re-analysis of the deposited data

How the results depend on the processing

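The number of arrays limits these values, and the array gives no depth. Without single arrays the log2 differences stayed at 1.02 to 1.35 for SERPINH1, 1.04 to 1.31 for ZFAND2A, 0.89 to 1.20 for CLU and 0.19 to 0.39 for SQSTM1. The range was -0.17 to 0.025 for HSF2 and -0.097 to 0.067 for IER5. Signs turned for HSF2 without empty vector replicate 3 (0.025), for HSF4 without replicate 2 in both groups (0.0082, with or without the block), and for IER5 with array weights (-0.066), without VRTN replicate 1 (-0.097), without replicate 1 in both groups (-0.079, with or without the block) and without empty vector replicate 3 (-0.039). Leaving out a number in both groups, with or without the block, was chosen after seeing the data.

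In the comparison of VRTN with empty vector, 4 probe sets and 0 of the 9 genes were called. With the replicate block 8 probe sets and 3 genes were called (ZFAND2A, SERPINH1 and CLU), with array weights 14 and 3, and without moderation 0 probe sets and 0 genes. Without single arrays 1 to 4 probe sets were called. Without a replicate number in both groups they were 1 for replicate 1 and 0 for replicates 2 and 3. With the replicate block as well, they were 0 without replicate 1, 8 without replicate 2 and 24 without replicate 3, and the genes called were 0, 2 and 3. The replicate block changed no call of the 6 lists.

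Heat-inducible chaperone calls, 2 in the main comparison, were 1 after another quantile normalization, 0 without moderation, 0 to 2 without single arrays and 0 without any replicate number. With the replicate block and a number left out they were 0, 1 and 5 for replicates 1, 2 and 3. With array weights 3 heat-inducible chaperone genes were called, and 1 gene of the HSF1 partners, FBXW7.

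Over replicate numbers, 300 probe sets and 0 of the 9 genes were called. These were 2500 and 3 without the dimmest 40 percent, 3387 and 5 with a trended and robust prior, 0 and 0 without moderation, and 177 and 0 with array weights. Without single arrays 0 to 545 probe sets were called, the lowest where replicate 1 of either group was left out. The cause of these shifts was not tested.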
